A study of Mus musculus with 2 samples.

Results

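The matrix metalloproteinases (MMPs), the ADAMTS and ADAMTS-like genes and the tissue inhibitors of metalloproteinases (TIMPs) were measured in the newborn mouse heart. Members were taken by symbol: Mmp, Timp, Adamts or Adamtsl followed by a number, with 1 optional letter for the MMPs. The rule gave 51 genes among the 43346 Ensembl genes of the table, namely 23 MMP, 19 ADAMTS, 5 ADAMTS-like and 4 TIMP genes. No measured value entered the rule itself, but earlier results of these data were known when it was chosen.

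Whole hearts of 2 newborn mice of strain B6NCrl gave 1 total RNA library each, replicate 1 being pup 2 and replicate 2 being pup 3 of the same pregnancy, each a single heart taken at postnatal day 0. The labels name no genetic change or treatment, sex was not recorded, and both libraries carry 1 donor identifier, so the pups are treated as separate animals on their descriptions alone. There was 1 group of 2 animals and no other age or tissue, so the comparisons are between genes within a heart and between littermates. No p-value is given, since 0.5 is the smallest that an exact two-sided sign-flip test could reach with 2 animals.

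MMPs are zinc-dependent proteases, most of them secreted as inactive precursors and some anchored in the cell membrane, that cut collagens, gelatin and other matrix proteins. TIMPs bind their active site and block it. ADAMTS proteases carry thrombospondin repeats and include enzymes that cut proteoglycans such as versican and enzymes that trim procollagen, while ADAMTS-like proteins have the repeats without the protease domain. In the heart these enzymes are known for reshaping the collagen network and, before birth, for clearing versican-rich matrix from the forming chambers and valves.

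Libraries held 46151722 (pup 2) and 44707283 (pup 3) expected counts, which are estimated reads per gene, and the 51 genes together took 48069 and 46219 of them. All 6 listed cardiomyocyte markers were above 1 TPM in both hearts (a transcript level scaled by length and depth), with summed levels of 40382 and 35921 TPM. The hearts differed in a list of 7 lung epithelial markers, which summed to 32.7 TPM in pup 2 and 640.2 TPM in pup 3. These markers were mixed in direction. Scgb3a2 (2.96 and 563.0 TPM), Scgb1a1 and Sftpd were higher in pup 3, while Sftpc (25.5 and 0.34 TPM), Ager, Sftpa1 and Sftpb were lower. The hearts also differed in 5 erythroid markers, which summed to 6036 and 3916 TPM. In these whole hearts, fewer cells of a type and less RNA per cell cannot be told apart. Values below are in the order pup 2, pup 3, and errors are SD with n = 2.

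Of the 51 genes, 29 (56.9%) reached 1 TPM in both hearts, against 54.5% of all 21474 protein-coding genes, so the detected share was near the background. The families were unlike in this count: 4 of 4 TIMP, 4 of 5 ADAMTS-like, 13 of 19 ADAMTS and 8 of 23 MMP genes were detected. Mmp2, Timp2, Timp3 and Mmp14 were each above 40 TPM in both hearts and together held 47.8% and 46.3% of the summed TPM of all members. The remaining 22 genes had mean levels from 0 to 0.845 TPM, the highest of them Adamts14.

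**Figure D1:**
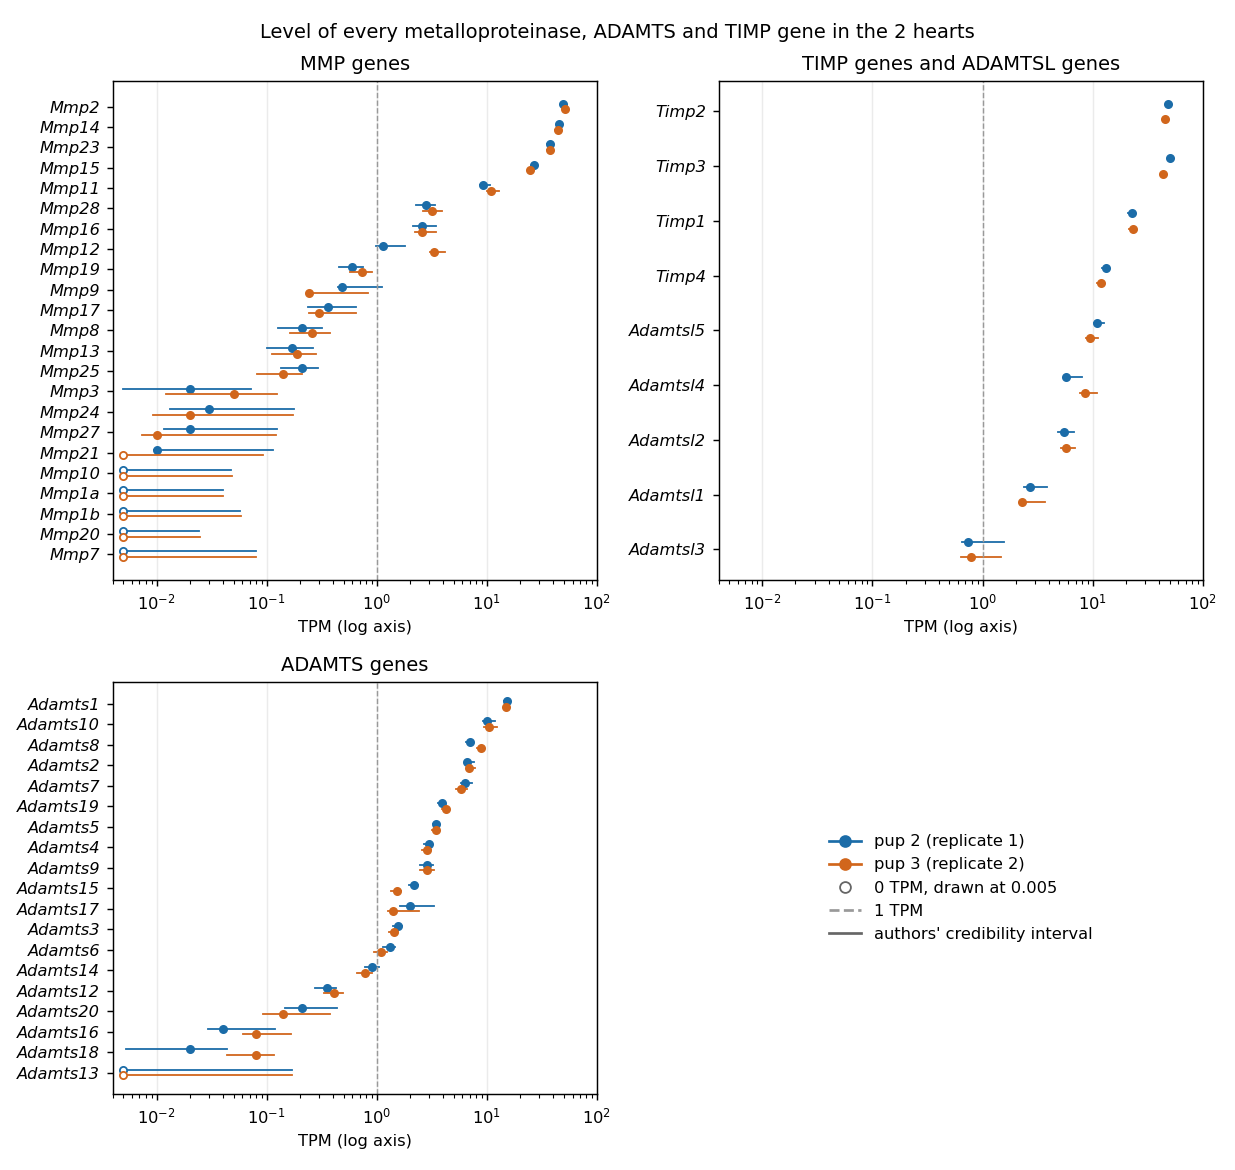
Level of each of the 51 genes in TPM (log axis) in pup 2 (blue) and pup 3 (orange), with the authors' credibility interval of TPM as a line and the 1 TPM limit dashed; open points are 0 TPM. The 4 TIMP genes lie above 10 TPM, while 15 of the 23 MMP genes lie below 1 TPM in at least 1 heart.

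Among the inhibitors, Timp2 stood at 48.5 and 45.5 TPM and Timp3 at 50.2 and 43.1 TPM. Timp2 is the inhibitor that also helps membrane-type MMPs to activate pro-MMP2, and Timp3 is the TIMP that stays bound to the matrix and also inhibits several ADAM and ADAMTS enzymes. Their order changed between the pups, with a log2 difference in TPM + 1 of 0.01 ± 0.09, so they could not be ranked. Timp1, a soluble inhibitor, was lower at 22.7 and 23.3 TPM. Timp4, known for its high level in the heart, was the lowest of the family at 13.17 and 11.97 TPM. The ranges of Timp1 and Timp4 overlapped neither each other nor those of Timp2 and Timp3. Timp1, Timp3 and Timp4 each lie inside a synapsin gene on the opposite strand, and Syn1, Syn3 and Syn2 were at 0.02 and 0.13, 0.36 and 0.45, and 0.70 and 0.73 TPM. By exon, Timp1 shares 0 bases with Syn1, Timp4 shares 90 with Syn2 and Timp3 shares 1733 with Syn3. No label or header says whether reads were counted by strand, and without strand the reads of shared exon bases cannot be told apart.

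Of the gelatinases, which cut denatured collagen and basement membrane collagen, Mmp2 was at 49.4 and 51.4 TPM and Mmp9 at 0.48 and 0.24 TPM. Mmp2 (chromosome 8, 92827291 to 92853420, plus strand, mm10) was the highest of the 51 genes, with a mean above that of 90.5% of protein-coding genes. Mmp9 rested on 51 and 25 counts, so a fold between the gelatinases is imprecise.

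Membrane-type MMPs are held at the cell surface, and Mmp14 encodes the main activator of pro-MMP2. Mmp14 (chromosome 14, 54431612 to 54445364, plus strand) was at 45.3 and 43.9 TPM, and Mmp15 was at 26.7 and 24.8 TPM. Mmp16 was at 2.55 TPM in both hearts, and the other 3 membrane-type genes, of which Mmp17 was the highest at 0.36 and 0.30 TPM, were undetected. The 3 detected members of this class thus fell into separate ranges, in the order Mmp14, Mmp15, Mmp16. Set against its inhibitor, Mmp2 was close to Timp2: the log2 difference of Timp2 over Mmp2 was -0.03 in pup 2 and -0.17 in pup 3, and the pair was not called.

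Other detected MMPs were Mmp23 at 37.9 and 37.8 TPM, Mmp11 at 9.19 and 10.95 TPM, Mmp28 at 2.81 and 3.18 TPM and Mmp12 at 1.14 and 3.29 TPM. Mmp23 encodes a membrane-bound MMP of unusual structure, Mmp11 stromelysin-3, Mmp28 epilysin and Mmp12 the macrophage elastase. Mmp11 shares 155 exon bases with Chchd10 on the opposite strand, which stood at 825.1 and 848.0 TPM, so its level is uncertain unless the counting used strand. The collagenases, which make the first cut in fibrillar collagen, were all below the limit: Mmp8, Mmp13, Mmp1a and Mmp1b summed to 0.38 and 0.45 TPM.

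The proteoglycan-cutting ADAMTS genes had 6 of 7 members detected, summing to 33.8 and 34.7 TPM. Adamts1 was the highest ADAMTS gene at 15.1 and 15.0 TPM, followed in this class by Adamts8 at 6.98 and 8.79 TPM. Adamts5 (3.47 and 3.44 TPM), Adamts4 (2.96 and 2.86 TPM), Adamts9 (2.88 and 2.89 TPM) and Adamts15 (2.18 and 1.52 TPM) were lower, and Adamts20 was undetected at 0.21 and 0.14 TPM. The Adamts9 level sums coding and other transcripts. Its coding transcripts Adamts9-205 (0.59 and 0.60 TPM) and Adamts9-201 (0.31 and 0.38 TPM) were each lower than the processed transcript Adamts9-204 (1.04 and 1.01 TPM). Its detection thus does not show coding RNA at 1 TPM. The range of Adamts1 lay above those of all other genes of the class. Between the hearts Adamts15 had a log2 ratio of -0.50 and Adamts8 of 0.35, while Adamts1, Adamts4, Adamts5 and Adamts9 had ratios from -0.04 (Adamts4) to 0.10 (Adamts9).

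Adamts2, whose enzyme removes the amino-terminal propeptide of fibrillar procollagens, was at 6.64 and 6.86 TPM. Adamts3, a second such enzyme, was at 1.56 and 1.43 TPM, and Adamts14, the third, was below 1 TPM at 0.91 and 0.78. The order Adamts2, Adamts3, Adamts14 held in both hearts without overlap.

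Outside these classes Adamts10, which encodes a microfibril-associated family member, was at 10.1 and 10.5 TPM, Adamts7 at 6.32 and 5.78 TPM and Adamts19 at 3.90 and 4.26 TPM. Adamts17 was at 1.99 and 1.40 TPM and Adamts6 at 1.31 and 1.10 TPM. Summed over all annotated transcripts, Adamts10 was therefore 8.54 times its closest relative Adamts6 in mean TPM, and Adamts19 was 2.41 times Adamts17. The only Adamts10 transcript annotated as coding, Adamts10-201, was at 1.77 and 1.91 TPM. The 1 transcript of Adamts6 is coding, so the coding RNAs of this pair lay much closer. In Adamts17 the highest transcript was the retained-intron Adamts17-206, at 0.66 and 0.58 TPM. Of the ADAMTS-like genes, Adamtsl5 was at 10.9 and 9.39 TPM, Adamtsl4 at 5.72 and 8.55 TPM, Adamtsl2 at 5.45 and 5.78 TPM and Adamtsl1 at 2.67 and 2.26 TPM. Adamtsl2 and Adamtsl4 encode proteins that bind fibrillin microfibrils. The difference between Adamtsl4 and Adamtsl5 was as large as its spread (log2 -0.47 ± 0.50), so that pair was not ranked.

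Summed over families, MMP genes held 177.0 and 179.8 TPM, TIMP genes 134.5 and 123.9 TPM, ADAMTS genes 66.9 and 67.3 TPM and ADAMTS-like genes 25.5 and 26.8 TPM. The inhibitors summed to 0.760 and 0.689 of the MMP level (log2 -0.47 ± 0.10), and to 2.01 and 1.84 times the ADAMTS level. Each order held in both hearts. These are sums of RNA levels, and no protein or enzyme activity was measured.

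Across 29 pairs of related genes, a pair was called where the difference in log2(TPM + 1) had the same sign in both hearts, its mean exceeded the difference between the pups, and the deposited credibility intervals of TPM did not overlap in either heart. By this rule 22 pairs were called and 7 were not. The uncalled pairs were Timp2 with Timp3, Timp2 with Mmp2, Adamtsl4 with Adamtsl5 and 4 pairs of genes that were both undetected. The widest called differences were those of Mmp2 over Mmp9 (5.25 ± 0.22) and Mmp15 over Mmp24 (4.70 ± 0.06). Their order depends on the pseudocount: at 0.1 in place of 1 they were 6.83 and 7.69. Mmp24 rested on 4.34 and 3.23 counts. With the pseudocount of 1, the narrowest called difference was Mmp2 over Mmp14 (0.17 ± 0.07). Within the proteoglycan-cutting class Adamts1 exceeded Adamts5 by 1.85 ± 0.0012, Adamts4 by 2.04 ± 0.02, Adamts9 by 2.05 ± 0.01 and Adamts15 by 2.51 ± 0.23. Adamts8 also exceeded Adamts5, by 2.28 times in mean TPM.

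**Figure D2:**
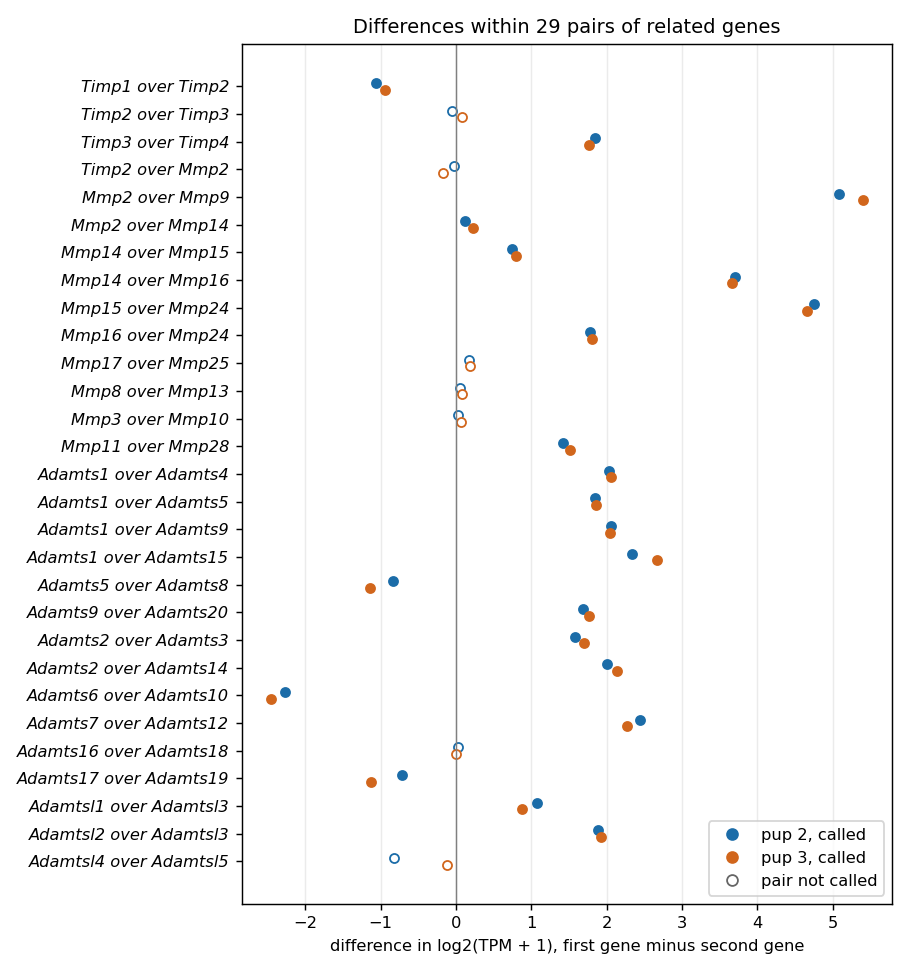
Difference in log2(TPM + 1) between the genes of each of 29 pairs, in pup 2 (blue) and pup 3 (orange), filled where the pair was called and open where it was not. Both points of each of the 22 called pairs lie on the same side of 0, from 0.12 for Mmp2 over Mmp14 in pup 2 to 5.40 for Mmp2 over Mmp9 in pup 3 on the positive side.

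Between the littermates, 33 of the genes had a mean count of 50 or more, and 1 of them, Mmp12, had an absolute log2 ratio of 1 or more. Over all genes with such counts, 67 of 13463 (0.498%) reached that ratio. The other 32 genes lay between -0.50 (Adamts15) and 0.36 (Adamtsl4) and within 1.5-fold, as did 97.9% of all genes. The median log2 ratio was 0.00 over the 33 genes and -0.00 over all genes, with 17 of the 33 above 0 and 16 below. Within 1.2-fold lay 28 of the 33 (84.8%), against 84.8% of all genes, so this share was that of all genes.

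**Figure D3:**
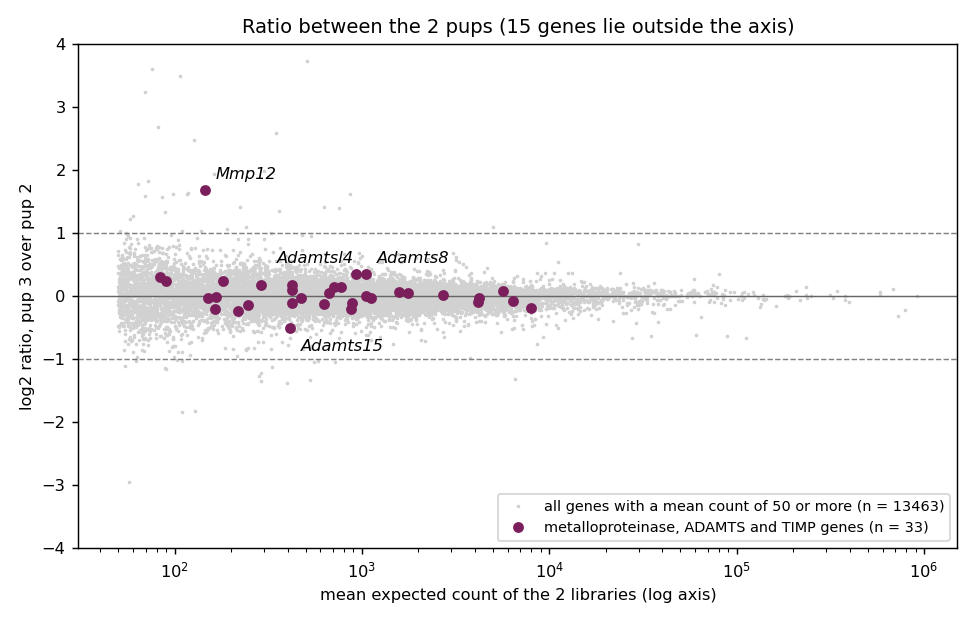
Log2 ratio of scaled counts, pup 3 over pup 2, against the mean expected count (log axis) for 13463 genes (grey) and the 33 metalloproteinase, ADAMTS and TIMP genes (purple); dashed lines mark 1 and -1, and 15 grey genes lie beyond the axis. Mmp12 at 1.68 is the only purple point past the lines.

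Mmp12 had 69 counts in pup 2 and 221 in pup 3. After scaling this was a 3.21-fold difference, log2 1.68, the 30th largest in size among the 13463 genes. The credibility intervals of its TPM, 0.992 to 1.81 and 3.03 to 4.20, did not overlap, but they hold counting and assignment error only. With 1 heart on each side the difference has no replicate check.

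Because Mmp12 is made mainly by macrophages, the 7 listed macrophage markers stand beside it: 6 were detected, their sum was 103.9 and 114.1 TPM, none was at 0, and none reached a log2 ratio of 1. Cd68 had a log2 ratio of 0.52, Adgre1 of 0.26, Csf1r of 0.06 and Fcgr1 of -0.31. Other genes that did pass 1 were Adam8, a membrane protease of white blood cells, with 28 and 99 counts (log2 1.78), and Ltf, the lactoferrin of neutrophil granules, with 34 and 104 counts (1.59), both picked out after their values were seen. Of the other neutrophil markers on the same list of 6, S100a8 had a log2 ratio of -0.02, S100a9 of 0.05, Ngp of 0.44 (58 and 78 counts) and Camp of 0.36 (17 and 22 counts), and Elane had 0 and 1 counts. The lung epithelial markers were mixed, with Scgb3a2 at 51 and 9592 counts and Sftpc at 685 and 9. What these marker differences have to do with Mmp12 was not tested.

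The transcript table placed most of the added Mmp12 reads on 1 annotated transcript. Mmp12-204, annotated as subject to nonsense-mediated decay, had 44.1 counts in pup 2 and 187.3 in pup 3 (63.9% and 84.7% of the gene's counts), a log2 ratio of 2.07. The gene's other transcripts together had 24.9 and 33.7 counts, a log2 ratio of 0.44. In the GENCODE M21 annotation Mmp12-204 differs from Mmp12-201, the longest coding transcript, in several exons: its exon 2 starts 58 bases earlier and its last exon is 662 bases long instead of 2235. Mmp12-201 was estimated at 0 counts in both hearts. Estimates of this kind share out reads among overlapping transcripts, and the table does not show on which of the differing exons the reads lay.

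**Figure D4:**
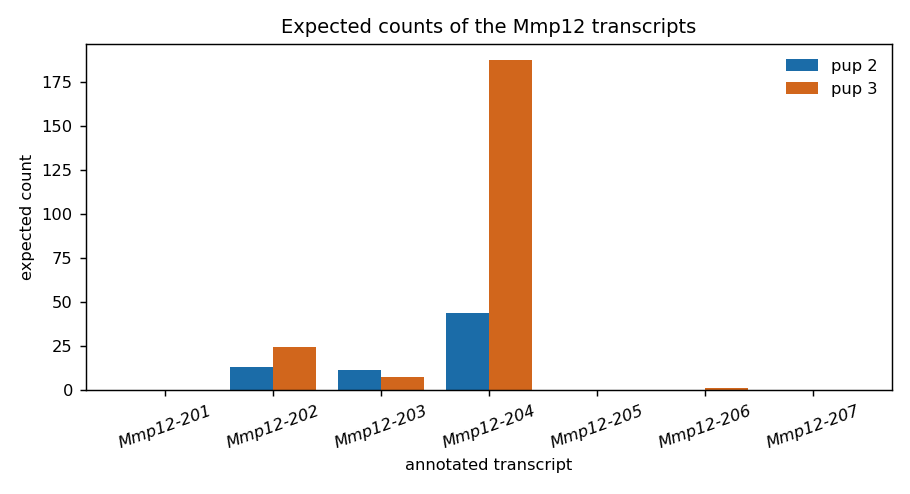
Expected counts of the 7 annotated Mmp12 transcripts in pup 2 (blue) and pup 3 (orange). Mmp12-204 holds the highest bar in each heart, 44.1 and 187.3 counts.

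Mmp12 belongs to a run of 10 neighbouring MMP genes on chromosome 9, from 7272514 to 7699585 in mm10 coordinates, in the order Mmp13, Mmp12, Mmp1b, Mmp3, Mmp1a, Mmp10, Mmp8, Mmp27, Mmp20 and Mmp7. Mmp12 was the 1 gene of this run above 1 TPM. The other 9, among them the collagenases Mmp13 and Mmp8, the stromelysins Mmp3 and Mmp10, the matrilysin Mmp7 and the enamel protease Mmp20, reached at most 0.26 TPM. Of them 5, namely Mmp1a, Mmp1b, Mmp7, Mmp10 and Mmp20, had 0 counts in both hearts, which allows up to 0.0247 to 0.0820 TPM (3 counts in a library; counting error only). The 9 genes together had 38 and 45 counts, a log2 ratio of 0.26, while Mmp12 held 64.5% and 83.1% of the counts of the run. The nearest protein-coding genes on the 2 sides were Dcun1d5, at 59.4 and 56.4 TPM, and Tmem123, at 47.4 and 45.5 TPM. Other genes around the run were lower, such as the pseudogene Gm10709 next to it at 2.31 and 1.48 TPM, Dync2h1 at 2.50 and 2.04 TPM and Cep126 at 0.72 and 0.77 TPM. Of the 13 MMP genes outside the run, 7 were detected.

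**Figure D5:**
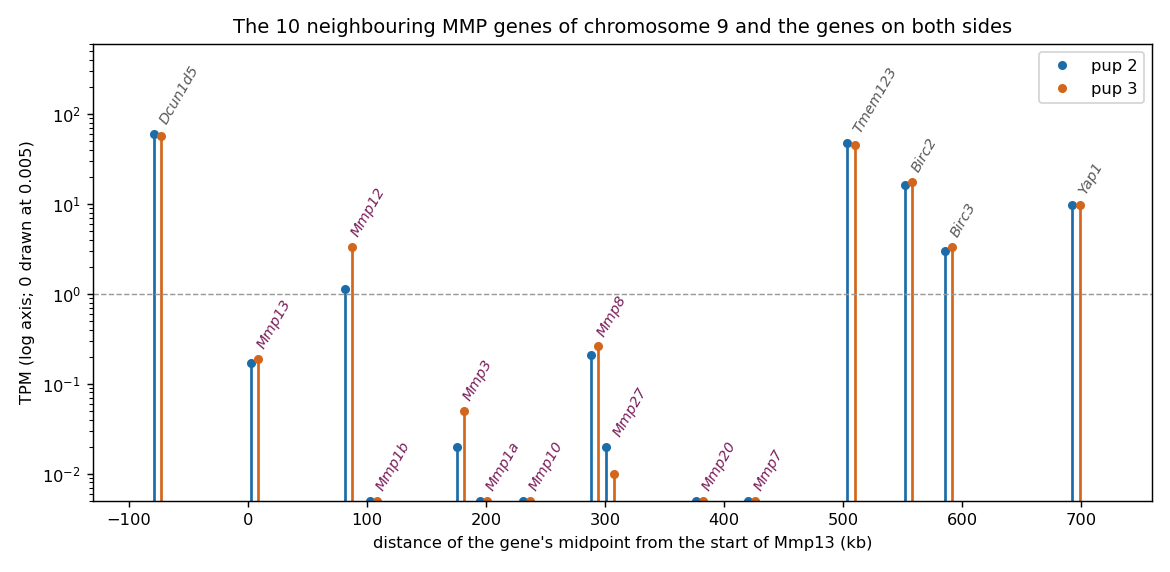
Level in TPM (log axis) of the 10 neighbouring MMP genes of chromosome 9 (purple names) and the genes on both sides (grey names), placed by distance in kb from the start of Mmp13, in pup 2 (blue) and pup 3 (orange). Only Mmp12 among the 10 rises above the dashed 1 TPM line.

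The promoters of the run had features in common. RefSeq windows (build GRCm38.p6) were matched by symbol for all 10 of its genes and for the 4 TIMP genes, but for only 36 of the 51 members (70.6%), too few for a comparison over the whole set. The 250 bases before each start were searched on both strands for TGANTCA, the core of sites bound by AP-1 factors, for TATAAA, the TATA box, and for GGGCGG, the GC box bound by Sp factors; these motifs and windows were chosen after the levels had been seen. TGANTCA stood in 8 of the 10 windows, 35 to 95 bases before the start, against 6.85% of 27025 genes. TATAAA stood in 7 of the 10, at scattered positions from 7 to 123 bases before the start, against 13.0% of all genes. The same 7 genes of the run held both motifs, against 1.32% of all genes. GGGCGG stood in 0 of the 10, against 33.0% of all genes. The windows held 0 to 4 CG dinucleotides, as did 44.5% of all genes, whose median was 6. These shares of all genes used the window farthest upstream in each gene. For Mmp12 the window nearer its most-read transcript was used instead, and its farthest upstream window holds 0 of these motifs. Over all 32851 windows TGANTCA stood in 6.75%. In the TIMP windows there were 2 to 21 CG dinucleotides, TGANTCA and TATAAA in 0 of 4 and GGGCGG in 3 of 4. The 10 genes are related copies, so their windows are not independent. A match is a string of letters and no evidence of binding, and it did not separate the undetected genes of the run from the detected one, since Mmp13, Mmp3 and Mmp12 all hold TGANTCA.

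As examples 6 windows are shown, picked after their motifs were seen, 4 from the run and 2 from genes at high level elsewhere: Mmp12 (chr9:7347124-7347373), Mmp13 (chr9:7272264-7272513), Mmp3 (chr9:7445572-7445821), Mmp8 (chr9:7558179-7558428), Mmp14 (chr14:54431348-54431597) and Timp3 (chr10:86300162-86300411), all on the plus strand, read 5′ to 3′ up to the base before the start, with the searched motifs in capitals (a GC box on the other strand reads CCGCCC).
Mmp12: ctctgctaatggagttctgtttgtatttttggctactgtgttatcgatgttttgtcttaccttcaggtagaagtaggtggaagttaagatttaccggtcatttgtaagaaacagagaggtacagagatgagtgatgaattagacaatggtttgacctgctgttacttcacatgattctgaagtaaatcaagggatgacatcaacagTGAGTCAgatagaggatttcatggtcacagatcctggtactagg
Mmp13: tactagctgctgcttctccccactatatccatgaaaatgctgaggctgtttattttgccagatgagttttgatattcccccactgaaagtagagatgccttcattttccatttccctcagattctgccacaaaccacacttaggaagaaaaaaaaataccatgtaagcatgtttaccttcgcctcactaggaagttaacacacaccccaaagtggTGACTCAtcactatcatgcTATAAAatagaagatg
Mmp3: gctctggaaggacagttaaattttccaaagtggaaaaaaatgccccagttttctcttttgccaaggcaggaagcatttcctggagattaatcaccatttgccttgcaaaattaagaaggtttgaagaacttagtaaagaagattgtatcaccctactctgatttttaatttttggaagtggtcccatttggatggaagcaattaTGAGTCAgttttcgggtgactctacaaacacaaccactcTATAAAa
Mmp8: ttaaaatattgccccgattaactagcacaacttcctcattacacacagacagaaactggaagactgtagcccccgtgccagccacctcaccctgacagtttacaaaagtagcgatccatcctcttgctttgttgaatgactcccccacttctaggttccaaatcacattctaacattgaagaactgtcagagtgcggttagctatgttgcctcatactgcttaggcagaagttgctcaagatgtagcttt
Mmp14: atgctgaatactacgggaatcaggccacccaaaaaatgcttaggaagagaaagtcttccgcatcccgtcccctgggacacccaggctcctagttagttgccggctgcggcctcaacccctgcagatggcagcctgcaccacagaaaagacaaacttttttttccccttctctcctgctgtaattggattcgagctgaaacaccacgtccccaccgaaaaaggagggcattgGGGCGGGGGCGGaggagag
Timp3: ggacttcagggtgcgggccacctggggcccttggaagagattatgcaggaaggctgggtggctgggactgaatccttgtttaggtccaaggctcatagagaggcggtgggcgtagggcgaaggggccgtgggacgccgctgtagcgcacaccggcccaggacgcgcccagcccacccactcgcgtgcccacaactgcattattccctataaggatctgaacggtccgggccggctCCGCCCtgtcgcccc

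The AP-1 type motif begins 44 bases before the start in Mmp12, 35 in Mmp13 and 46 in Mmp3. Mmp13 and Mmp3 also carry TATAAA, at 16 and 7 bases before the start, whereas the Mmp8 window holds none of the searched motifs. Mmp14 has 2 adjoining GC boxes, at 19 and 13 bases, and Timp3 has 1 at 15 bases. These examples do not stand for all genes by level: the windows of Mmp23 and Timp4 hold none of the motifs, and those of the undetected genes Mmp24, Mmp25, Adamts14, Adamts20 and Adamtsl3 hold 2 to 6 GC boxes. Mmp12 has a second RefSeq window farther upstream with none of these motifs. The one shown is nearer to the start of Mmp12-204, the transcript with the most reads, but does not end at it. Its distances are counted from 7347374, where Mmp12-201 begins, whereas Mmp12-204 begins at 7347406.

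Of 13 genes at 5 TPM or more with several annotated transcripts, 11 had the same most abundant transcript in both. That transcript held over 80% of the gene's TPM in both hearts for 5 of them, among them Timp2-201 with 98.8% and 99.0% and Timp3-201 with 96.5% and 97.1%. Timp1 was split between Timp1-202 (53.0% and 46.5%) and Timp1-201, which changed order. Adamts10, with 12 annotated transcripts, also changed order by TPM, from the nonsense-mediated decay transcript Adamts10-207 (22.9% and 11.7%) to the retained-intron transcript Adamts10-210 (16.7% and 20.3%). Adamts10-210 is only 721 bases long and held 3.5% and 4.6% of the gene's counts. By counts Adamts10-207 led in pup 2 (31.0% and 16.9%) and the coding Adamts10-201 led in pup 3 (23.3% and 26.0%). In Mmp23 the coding transcript Mmp23-201 held 63.7% and 67.7% of the TPM, and the other 3 transcripts are all annotated as retained introns. In Adamtsl2 the short retained-intron transcript Adamtsl2-203 held 49.1% and 48.7% of the TPM but 24.7% and 23.2% of the counts, and the coding Adamtsl2-201 held 71.8% and 75.9% of the counts.

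Genes of several proteins on which these enzymes act were at high RNA levels. Beside the detected counts of the lists below, 54.5% of all 21474 protein-coding genes were detected by the same rule. Of 21 listed substrates, 17 were detected, the highest being the fibrillar collagen gene Col3a1 at 452.3 and 473.1 TPM, Postn, the matricellular protein periostin, at 253.5 and 277.9 TPM and Col1a1 at 253.7 and 260.8 TPM. Of 12 activators and cell-surface partners, 10 were detected, led by Bsg, the MMP inducer basigin, at 958.1 and 950.0 TPM, the plasminogen activator Plat at 31.1 and 26.1 TPM and the syndecan Sdc4 at 23.4 and 23.0 TPM. Plg, the precursor of plasmin, had 2 and 0 counts. Among 13 other inhibitors and matrix regulators 10 were detected, with the procollagen C-proteinase enhancer Pcolce at 85.9 and 90.3 TPM, the serpin Serpine2 at 38.5 and 42.0 TPM and the fibulin Efemp2 at 24.4 and 26.4 TPM.

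Of 13 related metalloproteinases, 7 were detected, a share near that of all protein-coding genes. Adam15 was at 62.7 and 54.7 TPM, Adam10, a sheddase, at 30.4 and 29.7 TPM and Adam9 at 26.8 and 23.1 TPM. Among 10 collagen cross-linking and modifying enzymes, 9 were detected, led by the lysyl hydroxylase Plod1 at 42.2 and 36.9 TPM, Loxl1 at 29.5 and 30.5 TPM and Loxl2 at 18.9 and 17.6 TPM. Over these 5 lists 60 genes had a mean count of 50 or more, and Adam8 was the 1 with a log2 ratio of 1 or more between the pups. The list medians of the ratio ran from -0.10 for the activators to 0.06 for the cross-linkers, against -0.00 over all genes.

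The undetected genes gave few reads. In total 8 genes had 3 or fewer counts over both hearts: the 6 with none (Mmp1a, Mmp1b, Mmp7, Mmp10, Mmp20 and Adamts13, the protease that trims von Willebrand factor), Mmp21 with 1 and 0 counts and Mmp27 with 1 and 1. Of the rest, 4 undetected genes had a mean count of 50 or more (Adamts14, Adamtsl3, Mmp19 and Adamts12), and no difference between the pups could be read for the 18 members below that count.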

How the data were processed

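Total RNA of 2 newborn hearts was measured, 1 library each, from 10 ng of RNA with spike-ins, per the labels. Per the deposited read-me, the authors quantified reads on mm10 with GENCODE M4; aligner, tool versions and use of strand: not given in the sources used here. The authors deposited expected counts (reads shared out among features), TPM and FPKM per gene and transcript, posterior mean values, the bounds of a credibility interval of TPM (a signal in TPM units, width not stated) and the percent of a gene's TPM in each transcript.

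Symbols, coordinates and transcript names came from GENCODE M21 by identifier, and all 51 members matched. Levels are deposited TPM, which for a gene sums all its annotated transcripts, coding or not. Ratios between the pups are log2 ratios of expected counts scaled by TMM (edgeR 4.0.16, R 4.3.3, on rounded counts) with a prior count of 2, pup 3 minus pup 2, checked on simulated data. Detection was set at 1 TPM, pairs used a pseudocount of 1, and a difference between pups was counted at a mean count of 50 and an absolute log2 ratio of 1. DESeq2 1.42.0 size factors were an alternative. Tables and figures used Python 3.11.15, pandas 2.3.3, numpy 2.4.6 and matplotlib 3.10.9. Nothing says that the spread between the pups is free of technical differences, and n is 2 throughout.

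Members and gene lists were chosen with earlier results of these data known. The genes named were every member at 1 TPM or more in both pups, members with 3 or fewer summed counts, members that differed between the pups, both members of called pairs and the 3 most abundant genes of each pathway list; other names were chosen after their values were seen. Protein sequences were not used here, so the planned description of protein features was not made. One result on overlapping genes is not reported here.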

Additional observations from a re-analysis of the deposited data

How the results depend on the processing

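The number of detected members was 29 at 1 TPM, 32 at 0.5 TPM, 24 at 2 TPM, 30 with posterior mean TPM (Adamtsl3 added), 27 with FPKM (Mmp12 and Adamts6 lost) and 29 in either pup alone. The median level of the members was 1.85 TPM, 2.11 with posterior means, and 1.52 to 1.99 with 1 pup left out. With posterior means 8 of the 29 detected members moved by at least their SD between the pups, such as Adamtsl1 from 2.465 to 3.045 TPM. The number of called pairs was 22, also with a pseudocount of 0.1, FPKM and posterior means. Those settings could hardly change it, so the unchanged number says little about stability. The pseudocount and posterior mean settings reused the same TPM intervals, and FPKM rescales all genes of a library alike. With 1 pup left out 23 to 24 pairs were called. Timp2 over Mmp2 (-0.17) and Mmp17 over Mmp25 (0.19) were added without pup 2, and Adamtsl4 over Adamtsl5 (-0.83) without pup 3. With expected counts not divided by length, and the same TPM intervals, 20 pairs were called, Mmp14 over Mmp15 (0.03) and Adamts5 over Adamts8 (-0.00) being lost. The same counts moved the log2 ratio of summed levels to -0.14 for TIMP over MMP, 0.42 for TIMP over ADAMTS and 0.56 for MMP over ADAMTS, from -0.47, 0.94 and 1.41; posterior means gave 1.38 for MMP over ADAMTS. With 1 pup left out these ratios ran from -0.54 to -0.40, from 0.88 to 1.01 and from 1.40 to 1.42. Mmp12 was the 1 member counted as differing between the pups under 6 of 7 alternatives; with no filter on the mean count there were 2, Adamts18 (4 and 16 counts) being added. Its log2 ratio was 1.68, and 1.45 from deposited TPM. The same main transcript in both pups was found for 11 genes by TPM and 10 by counts. No reversal of a called direction was seen. The planned protein features were not run. No paired analysis was possible because there was 1 group.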
